A study of Mus musculus with 11 samples.

Results

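Collagens are assembled from chains that are each encoded by a gene of their own, and the chains studied here were taken as every row of the liver count table whose symbol reads Col, a type number, a and a chain number. This rule found 44 of the 46603 genes in the table. They comprised 9 fibrillar chains (types I, II, III, V and XI), 9 network-forming chains (types IV, VIII and X), 6 chains of the beaded filament type VI, 6 fibril-associated chains with interrupted helices, known as FACIT chains (types IX, XII, XIV and XVI), 2 multiplexins (types XV and XVIII), 4 transmembrane chains (types XIII, XVII, XXIII and XXV), and 8 chains of other types. The rule used names only and no measured value.

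The study asked what INT-767, an agonist of the bile acid receptors FXR and TGR5, does in a mouse model of metabolic dysfunction-associated steatohepatitis (MASH). RNA-seq was performed on the terminal liver of 11 male B6.V-Lep ob/JRj (*ob/ob*) mice, which lack functional leptin. All were 5 to 6 weeks old when the AMLN diet (high in fat, fructose and cholesterol) began, received it for 15 weeks beforehand and throughout dosing, underwent a liver biopsy with inclusion on steatosis and fibrosis scores, were stratified on stained type I collagen area, and were single-housed afterwards. The 7 vehicle mice received carboxymethyl cellulose and the 4 INT-767 mice 10 mg/kg INT-767, each by gavage once daily for 8 weeks. Both groups therefore carried the leptin mutation and the diet, no lean or chow-fed group is analysed here, and how these 11 mice were drawn from the larger treatment arms is not given in the sources used here.

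Collagen chains share a short repeat that opens with glycine, the smallest residue, which lets the chains wind tightly around each other into a triple helix. Fibrillar chains form the banded fibres of scar tissue, type IV chains form the sheet of basement membranes, type VI forms beaded filaments around cells, FACIT chains sit on the surface of fibrils, and the multiplexins lie at the border between basement membrane and fibrils. In injured liver, stellate cells and portal fibroblasts that become myofibroblasts are the main known makers of fibrillar collagen, whereas hepatocytes are a known source of type XVIII, whose end fragment is endostatin.

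The glycine repeat can be read directly in the gene, because each 9-base unit then opens with GGN, the glycine codon. Of the 510 whole internal coding exons of the 9 fibrillar genes, 82.7% had a length divisible by 9 and 46.9% were exactly 54 bases long, that is 6 such units. In the 21857 other protein-coding genes of the annotation these shares were 13.7% and 0.444%. The longest unbroken run of GGN units was 337 to 344 in the fibrillar chains, 39 to 66 in the network chains, 37 to 87 in type VI, and 30 in both multiplexins. To show the repeat, the first 54-base coding exon made up of 6 such units is printed for 4 fibrillar chains, as their transcripts run 5′ to 3′ with the GGN codon that opens each 9-base unit in capitals. These exons lie, in GRCm38, at chr11:94939904-94939957 (+, exon 8), chr6:4515481-4515534 (+, exon 8), chr1:45325360-45325413 (+, exon 6) and chr2:27965251-27965304 (+, exon 15), and all are coding.
Col1a1: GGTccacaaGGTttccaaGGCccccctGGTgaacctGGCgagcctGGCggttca
Col1a2: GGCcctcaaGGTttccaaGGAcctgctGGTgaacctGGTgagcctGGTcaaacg
Col3a1: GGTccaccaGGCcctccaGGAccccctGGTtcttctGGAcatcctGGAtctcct
Col5a1: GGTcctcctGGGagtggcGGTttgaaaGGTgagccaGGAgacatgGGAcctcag

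For chains of the network and beaded classes that the results turn on, the longest run of GGN units within 1 coding exon is given in the same way: for *Col4a1* 15 units at chr8:11221290-11221424 (-, exon 30) and for *Col6a6* 8 units at chr9:105758292-105758363 (-, exon 14).
Col4a1: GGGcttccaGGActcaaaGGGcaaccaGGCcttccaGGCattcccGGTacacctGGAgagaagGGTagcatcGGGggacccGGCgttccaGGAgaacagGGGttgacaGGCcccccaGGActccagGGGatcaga
Col6a6: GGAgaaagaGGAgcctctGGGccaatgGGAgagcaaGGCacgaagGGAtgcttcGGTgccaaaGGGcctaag

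The 11 libraries held 7381211 to 16022459 counted reads, and the collagen genes together took 0.122% to 0.352% of them in the vehicle mice and 0.0735% to 0.148% in the INT-767 mice. Counts were scaled by library size and trimmed-mean factors to normalized counts on a common library total (CPM), and genes were tested with the quasi-likelihood test of edgeR with Benjamini-Hochberg adjustment over all 13880 genes that passed its filter on low counts. A gene was called at an adjusted *p* below 0.05. Of the 44 chains, 32 passed the filter. The 12 that did not were almost or wholly silent: *Col6a4*, *Col9a1*, *Col19a1* and *Col26a1* had no read in any mouse, *Col2a1* had 2 reads in all, *Col11a1* 5, *Col9a2* 6, *Col17a1* 16, *Col22a1* 16, *Col25a1* 31, *Col24a1* 42 and *Col10a1* 54. A total of 0 reads in a library allows a level of up to 0.175 to 0.422 CPM on this scale (3 counts), by counting error alone.

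Vehicle mice 1 and 7 stood closer to the INT-767 mice than to their own group. Their median Spearman rho was 0.959 and 0.957 with the INT-767 mice and 0.923 and 0.950 with the other vehicle mice. INT-767 mice 2 and 4 stood closer to their own group, at 0.963 and 0.932, than to the vehicle mice, at 0.907 and 0.873. INT-767 mouse 4 was nonetheless the least like the rest of its group, and its score on the first principal component (-0.556) was the most extreme of all mice. Over all tested genes, vehicle mice 1 and 7 correlated with INT-767 mice 2 and 4 at Spearman rho 0.957 to 0.970 and with vehicle mice 3 to 6 at only 0.907 to 0.952, and the first principal component, with 62.6% of the variance, placed these 4 mice on 1 side together with INT-767 mouse 3. The libraries also differed in their dependence on base composition. Spearman rho between a gene's GC content and its deviation from the mean of all mice was -0.43 in vehicle mouse 1, -0.13 in vehicle mouse 7, -0.26 in INT-767 mouse 2 and -0.24 in INT-767 mouse 4, against 0.30 to 0.44 in vehicle mice 3 to 6. It was 0.013 in vehicle mouse 2, -0.064 in INT-767 mouse 1 and -0.16 in INT-767 mouse 3. With transcript length in place of GC content, rho was -0.19 in vehicle mouse 1, -0.24 in vehicle mouse 7, -0.30 in INT-767 mouse 2 and -0.32 in INT-767 mouse 4, and it was positive, at 0.09 to 0.32, in the other 7 mice. The collagen chains tested had a median GC content of 55.9% against 49.4% for all tested genes, and a median longest transcript of 6084 against 3310 bases. Across 13835 genes, log2 fold changes fell with GC content (rho -0.30) and with transcript length (rho -0.24). The labels give no batch, and the part of these differences in the results was not tested beyond the fits given next to them.

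In the livers of INT-767-treated mice, 8 collagen chains were called lower and 0 higher. The 8 were *Col1a1* and *Col1a2* among the fibrillar chains, *Col4a1* of the basement membrane, *Col6a3*, *Col6a5* and *Col6a6* of type VI, the multiplexin *Col15a1*, and *Col7a1*, the chain of anchoring fibrils. They made up 25% of the 32 chains tested, whereas 4.68% of all 13880 genes were called lower and 5.04% higher. Of the 8, *Col6a5*, *Col6a6* and *Col7a1* passed the filter through the vehicle mice alone. They had at most 9, 5 and 7 reads in an INT-767 mouse. The share of 25% counts these chains and is given as a description. In the higher direction, edgeR, DESeq2 and limma-voom each called 0 chains, and 3 chains (of 32) had an unadjusted *p* below 0.05 in edgeR, where 17.4% of all genes did. In the lower direction 17 chains did, against 15.6% of all genes. In 7 chains every INT-767 mouse lay below every vehicle mouse, 21.9% of those tested against 3.65% of all genes, and in 0 chains did every INT-767 mouse lie above, against 3.87% of all genes. Chains made by the same cells are not independent of each other, and in whole liver fewer cells of a type and less RNA per cell cannot be told apart.

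The calls rested on few mice. With each of the 11 mice left out in turn, *Col4a1* and *Col6a6* were called 10 times, *Col15a1* 8, *Col1a2* 7, *Col1a1* 5, *Col6a3* 4 and *Col6a5* 3 times. *Col7a1* was called in 2 of the 7 fits in which it passed the filter. Without INT-767 mouse 2, edgeR called 0 of 33 chains tested (15 with an unadjusted *p* below 0.05, as had 20.1% of all genes), and the share of all genes called lower dropped with it, to 0.767%. The log2 fold changes of the 8 chains were then -3.15 (*Col6a6*) to -1.05 (*Col4a1*). Without INT-767 mouse 4, edgeR called 4 chains, 2 of them among the 8, and 3.17% of all genes. Leaving out vehicle mouse 3, 4, 5 or 6 left 4, 4, 3 and 2 calls, with 2.76%, 2.84%, 2.11% and 1.96% of all genes called lower, whereas leaving out vehicle mouse 1 gave 14, with 9.86% of all genes called lower. With vehicle mice 1 and 7 set aside, 15 chains were called lower, among them all 8, against 15.8% of all genes. In that fit 1 of 31 chains was called higher, *Col5a3*, against 2701 of 13644 genes. With INT-767 mice 2 and 4 set aside, 0 were called in either direction (13 with an unadjusted *p* below 0.05, as had 14.3% of all genes), against 0.563% of all genes called lower. With all 4 of these mice set aside, 10 chains were called lower, 6 of them among the 8, against 6.12% of all genes. Here 1 of 33 chains was called higher, *Col20a1*, against 856 of 14363 genes. Among those 4 mice alone, *Col4a2* was the 1 chain called, against 0.693% of all genes.

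**Figure D1:**
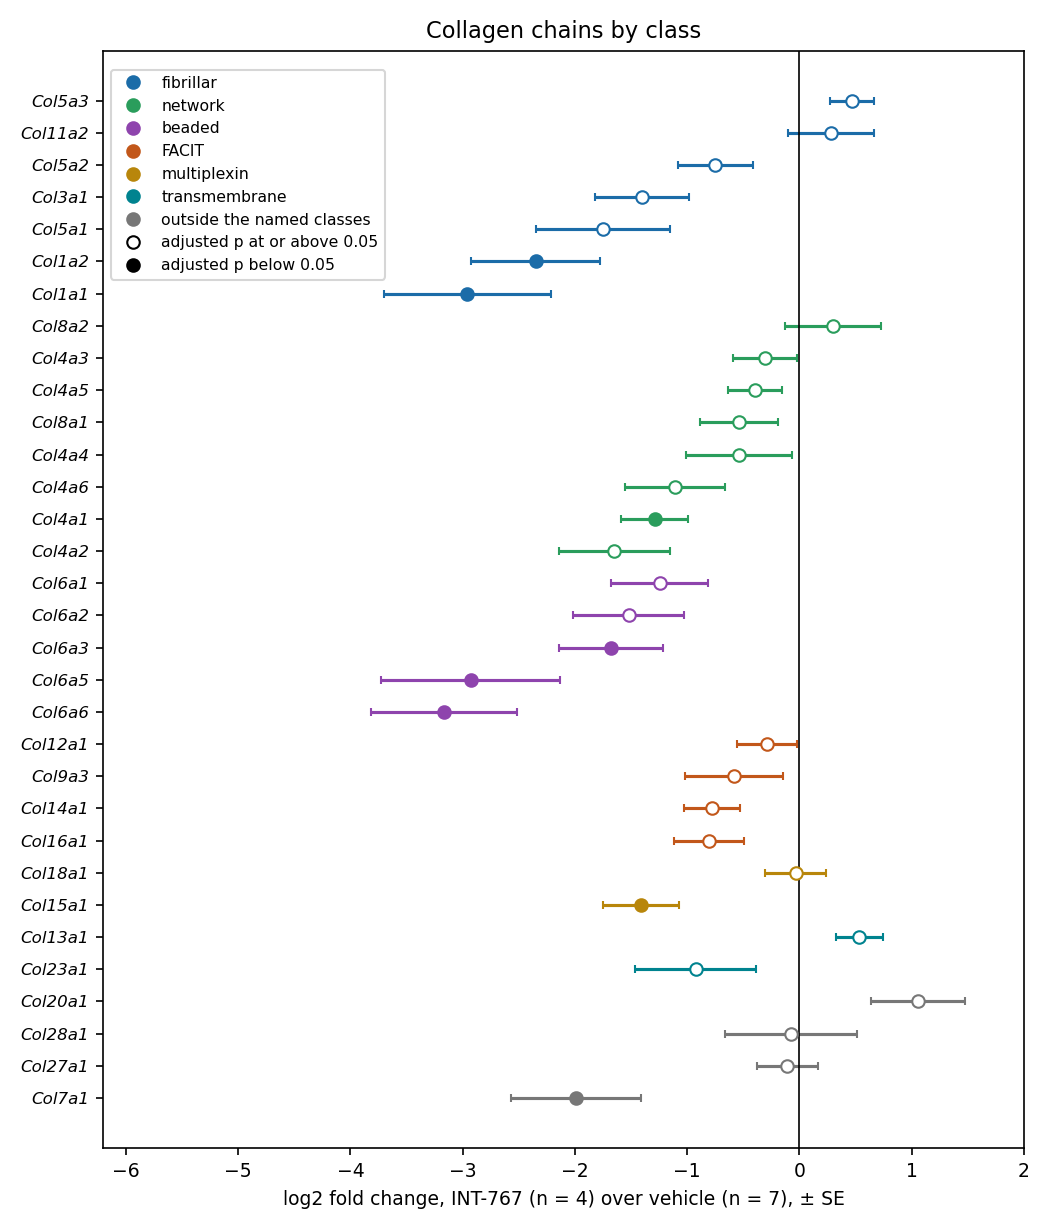
Log2 fold change of the 32 tested collagen chains, INT-767 (n = 4) over vehicle (n = 7), with the standard error as bars, colored by class; filled points had an adjusted *p* below 0.05 in edgeR. The filled points all lie left of 0, and *Col18a1* lies at -0.03.

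Among the fibrillar chains, both chains of type I collagen, the bulk protein of scar, were lower. Gene positions here and below are those of GENCODE M21 on GRCm38. *Col1a1* (ENSMUSG00000001506, chr11:94936224-94953042, + strand) ranged from 37.6 to 335 CPM in the vehicle mice with a median of 161 CPM. In the INT-767 mice it was 28.7, 3.87, 24.2 and 23.9 CPM. No INT-767 mouse reached the lowest vehicle mouse, and INT-767 mouse 2 lay far below the other three. The log2 fold change was -2.96 ± 0.74 (SE, adjusted *p* = 0.0297), and the adjusted *p* reached 0.0946 without INT-767 mouse 2. *Col1a2* (ENSMUSG00000029661, chr6:4504814-4541544, + strand), its partner chain, ranged from 46.6 to 309 CPM with a median of 155 CPM in the vehicle mice. It was 39.5, 10.6, 39.0 and 34.3 CPM in the INT-767 mice, again with no overlap. The log2 fold change of *Col1a2* was -2.35 ± 0.57 (adjusted *p* = 0.0272), and the adjusted *p* reached 0.0956 without INT-767 mouse 2. With vehicle mice 1 and 7 and INT-767 mice 2 and 4 set aside, the log2 fold change of *Col1a1* was -2.94 (adjusted *p* = 0.0658). That of *Col1a2* was -2.33 (adjusted *p* = 0.0377). Among those 4 mice alone the values were -1.55 and -1.29 (adjusted *p* = 0.188 and 0.130).

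Type III collagen, which forms mixed fibrils with type I, did not pass the test. *Col3a1* (ENSMUSG00000026043, chr1:45311538-45349706, + strand) ranged from 174 to 499 CPM with a median of 236 CPM in the vehicle mice. It was 83.4, 41.9, 113 and 199 CPM in the INT-767 mice, so that INT-767 mouse 4 lay inside the vehicle range. Its log2 fold change was -1.40 ± 0.42 (adjusted *p* = 0.0516), and it was called by DESeq2, by limma-voom and without vehicle mouse 1, vehicle mouse 7 or INT-767 mouse 4. Its adjusted *p* was 0.145 without INT-767 mouse 2, and with the GC and length offset it was -0.92 (adjusted *p* = 0.121). The type V chains, which start and limit type I fibrils, gave mixed values. *Col5a1* had a log2 fold change of -1.75 ± 0.60 (adjusted *p* = 0.0759) and *Col5a2* of -0.75 ± 0.33 (adjusted *p* = 0.141). DESeq2 called *Col5a1* lower (adjusted *p* = 0.0147), while limma-voom did not (adjusted *p* = 0.105). With the GC and length offset *Col5a1* was at -1.16 (edgeR, adjusted *p* = 0.0661), and its adjusted *p* was 0.216 without INT-767 mouse 2. A single library decided *Col5a2*, which was called at -1.33 without INT-767 mouse 4 (adjusted *p* = 0.00925) and at -1.24 with the 4 mice set aside (adjusted *p* = 0.0209). *Col5a3* had 36.9 ± 7.56 CPM (SD) in the vehicle mice and 51.1 ± 13.1 CPM in the INT-767 mice, a log2 fold change of 0.47 ± 0.20 (adjusted *p* = 0.119). *Col11a2*, best known from cartilage, stayed near 1 CPM at 0.965 ± 0.404 and 1.16 ± 0.408 CPM, with a log2 fold change of 0.28 ± 0.38 (adjusted *p* = 0.612). Over the 7 fibrillar chains tested, 2 were called, 5 had a negative value, and the median log2 fold change was -1.40, against -0.01 over all tested genes. It was -0.92 with the GC and length offset and -0.81 among the 4 mice alone.

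**Figure D2:**
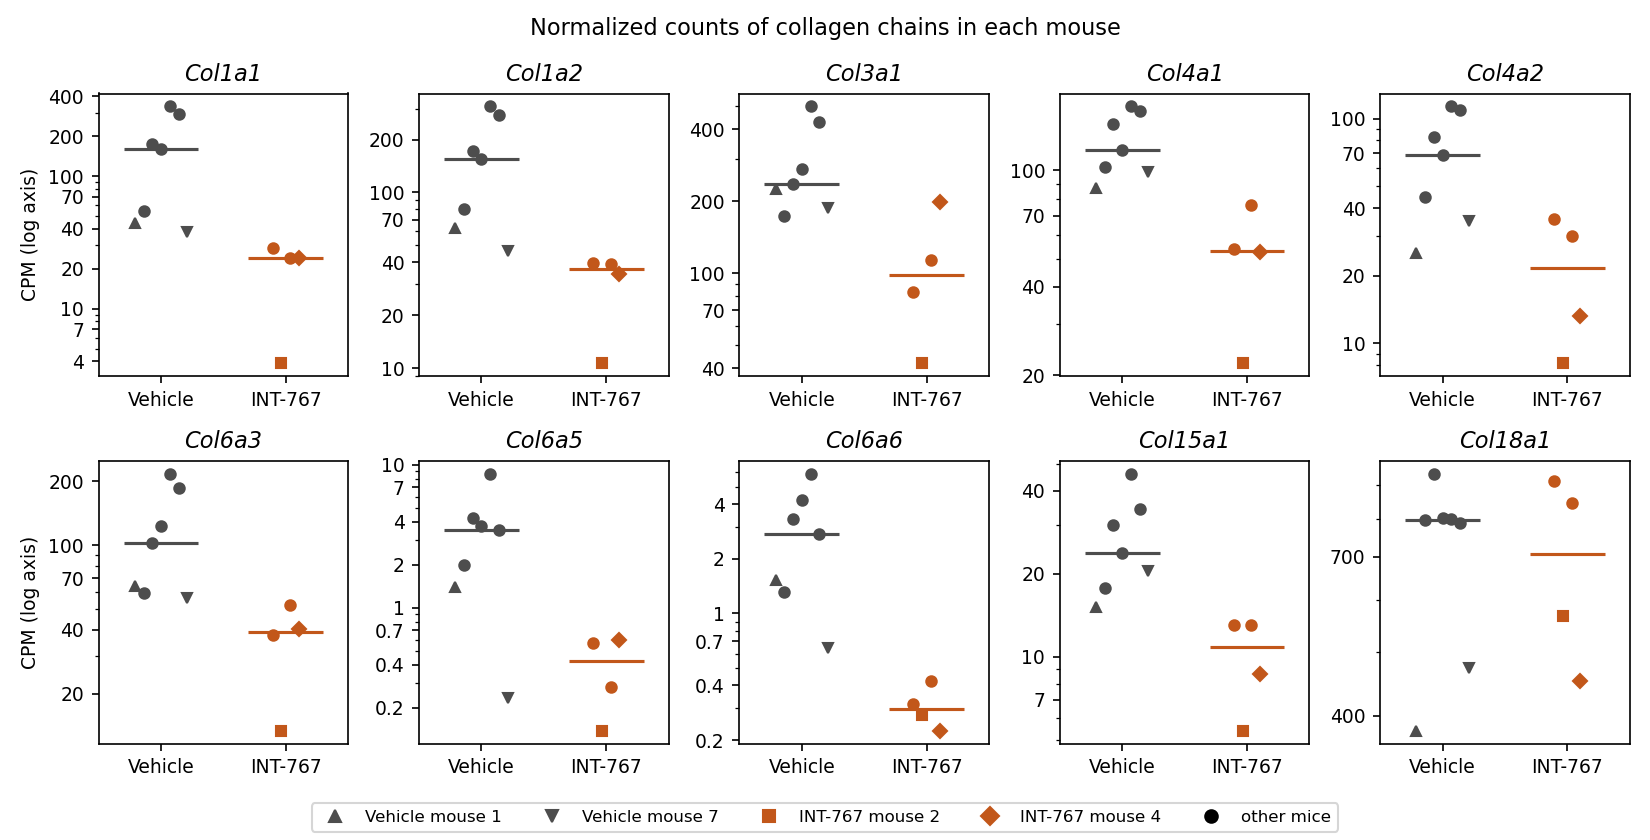
Normalized counts (CPM, log axis) of 10 collagen chains in each mouse, with the group median as a line. Vehicle mice 1 and 7 and INT-767 mice 2 and 4 have separate symbols. Every INT-767 mouse lies below every vehicle mouse for *Col1a1*, *Col1a2*, *Col4a1*, *Col6a3*, *Col6a6* and *Col15a1*, and the groups overlap for *Col3a1*, *Col4a2*, *Col6a5* and *Col18a1*.

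Of the network chains, edgeR called *Col4a1* lower, while its partner *Col4a2* narrowly missed the threshold. These chains twist together, with *Col4a1* in excess, into the main type IV molecule of basement membranes, and their genes lie head to head on chromosome 8 with 22 bases of annotated sequence in common at their starts. *Col4a1* (ENSMUSG00000031502, chr8:11198423-11312826, - strand) ranged from 86.9 to 165 CPM with a median of 117 CPM in the vehicle mice. It was 53.9, 22.0, 76.3 and 52.5 CPM in the INT-767 mice, all below the vehicle range. The fitted difference was -1.29 ± 0.30 on the log2 scale (adjusted *p* = 0.0234), and without INT-767 mouse 2 the adjusted *p* was 0.0581. With the GC and length offset the difference was -0.84 (adjusted *p* = 0.0191). It was -1.08 with the 4 mice set aside (adjusted *p* = 0.0106) and -1.35 among those 4 mice alone (adjusted *p* = 0.0712). *Col4a2* (ENSMUSG00000031503, chr8:11312805-11449287, + strand) ranged from 25.2 to 113 CPM with a median of 69.1 CPM in the vehicle mice. It was 35.6, 8.15, 30.1 and 13.2 CPM in the INT-767 mice, of which mice 1 and 3 lay inside the vehicle range. The fitted difference, -1.65 ± 0.49 on the log2 scale (edgeR, adjusted *p* = 0.0534), was larger than that of *Col4a1*, and it was called by DESeq2 (adjusted *p* = 0.00584), with library size only and with the GC and length offset. It was not called by limma-voom (adjusted *p* = 0.0524) or without INT-767 mouse 2 (adjusted *p* = 0.171).

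The other type IV chains, which build the basement membranes of kidney, lung and muscle, were scarcer. *Col4a5* had 21.6 ± 2.87 CPM (SD) in the vehicle mice and 16.4 ± 7.10 CPM in the INT-767 mice, with a log2 fold change of -0.39 ± 0.24 (adjusted *p* = 0.258). *Col4a6*, encoded 1308 bases from *Col4a5* on the opposite strand of the X chromosome, had 5.00 ± 2.13 and 2.37 ± 1.71 CPM, a log2 fold change of -1.11 ± 0.45 (adjusted *p* = 0.113). *Col4a3* and *Col4a4*, 71 bases apart on chromosome 1, were at 2.36 ± 0.786 and 3.77 ± 1.71 CPM in the vehicle mice, and their log2 fold changes were -0.31 ± 0.29 and -0.54 ± 0.47 (adjusted *p* = 0.444 and 0.419). In 5.65% of its exon bases *Col4a3* overlapped a gene on the other strand, so its value is uncertain if reads were counted without strand. Type VIII, a short-chain network collagen of vessels and cornea, had log2 fold changes of -0.54 ± 0.35 for *Col8a1* (adjusted *p* = 0.280) and 0.30 ± 0.42 for *Col8a2* (adjusted *p* = 0.624). Of the 8 network chains tested, 1 was called and 7 had a negative value, with a median log2 fold change of -0.54 that became -0.22 with the GC and length offset, when *Col4a3* and *Col4a5* had positive values.

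All 5 tested chains of type VI had a negative value, and 3 were called. *Col6a3* (ENSMUSG00000048126, chr1:90765923-90843971, - strand), the long chain that joins *Col6a1* and *Col6a2* in the type VI monomer, ranged from 56.4 to 216 CPM with a median of 102 CPM in the vehicle mice. It was 37.9, 13.4, 52.2 and 40.5 CPM in the INT-767 mice, with no overlap. Its log2 fold change was -1.68 ± 0.46 (adjusted *p* = 0.0408), with an adjusted *p* of 0.130 without INT-767 mouse 2 and 0.0858 with the 4 mice set aside. With the GC and length offset it was -1.06 (adjusted *p* = 0.0427). In edgeR *Col6a1* fell short of the threshold at -1.24 ± 0.43 (adjusted *p* = 0.0803), as did *Col6a2* at -1.52 ± 0.49 (adjusted *p* = 0.0675), while DESeq2 called both lower (adjusted *p* = 0.0263 and 0.0127).

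*Col6a5* and *Col6a6*, late members of the family that can stand in for *Col6a3*, were rare and, with *Col1a1*, had the lowest log2 fold changes of all tested chains. Both passed the filter through the vehicle mice alone, and their INT-767 values rest on few reads, so their place in this order is uncertain. *Col6a6* (ENSMUSG00000043719, chr9:105687809-105828160, - strand) ranged from 0.642 to 5.89 CPM with a median of 2.76 CPM in the vehicle mice, from 222 reads in all. It was 0.318, 0.276, 0.422 and 0.225 CPM in the INT-767 mice, from 13 reads. *Col6a6* thus had a log2 fold change of -3.16 ± 0.65 (adjusted *p* = 0.0139), and the adjusted *p* was 0.0579 without INT-767 mouse 2 and 0.0638 in limma-voom. *Col6a5* (ENSMUSG00000091345, chr9:105856078-105960643, - strand) ranged from 0.234 to 8.65 CPM with a median of 3.49 CPM in the vehicle mice, from 275 reads. It was 0.572, 0.138, 0.282 and 0.600 CPM in the INT-767 mice, from 20 reads, and vehicle mouse 7 lay among them. *Col6a5* thus had a log2 fold change of -2.93 ± 0.80 (adjusted *p* = 0.0389), with an adjusted *p* of 0.133 without INT-767 mouse 2 and 0.199 in limma-voom. With the GC and length offset it was -2.32 (adjusted *p* = 0.0408). Both genes lie on chromosome 9 with 27917 bases between them, and 2.89% of the 75-base windows of *Col6a5* also occur in *Col6a6*, so that few reads could be shared. With the 4 mice set aside their log2 fold changes were -3.21 and -3.25 for *Col6a5* and *Col6a6* (adjusted *p* = 0.0128 and 0.0115).

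Of the FACIT chains, 0 of 4 tested were called by edgeR in either direction, 2 had an unadjusted *p* below 0.05, and all 4 had a negative value. *Col14a1* (ENSMUSG00000022371, chr15:55307750-55520803, + strand), which coats fibrils and was the most abundant of them, ranged from 111 to 181 CPM with a median of 120 CPM in the vehicle mice. It was 95.9, 39.4, 72.2 and 105 CPM in the INT-767 mice, all below the vehicle range. Its log2 fold change was -0.78 ± 0.25 (adjusted *p* = 0.0644), and DESeq2 called it, while limma-voom did not. With the GC and length offset it was -0.37 (adjusted *p* = 0.298). *Col16a1* had a log2 fold change of -0.80 ± 0.31 (adjusted *p* = 0.105), *Col12a1* of -0.28 ± 0.27 (adjusted *p* = 0.454) and *Col9a3* of -0.58 ± 0.44 (adjusted *p* = 0.351). The value of *Col12a1* turned to 0.38 with the GC and length offset and to 0.44 among the 4 mice alone, without a call. *Col9a3* had 98 reads in all and overlapped a gene on the other strand in 6.07% of its exon bases.

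The multiplexins, alike in structure, had different values. *Col15a1* (ENSMUSG00000028339, chr4:47208161-47313167, + strand) ranged from 15.2 to 46.1 CPM with a median of 23.8 CPM in the vehicle mice. It was 13.1, 5.39, 13.1 and 8.69 CPM in the INT-767 mice, with no overlap. Its log2 fold change was -1.41 ± 0.34 (adjusted *p* = 0.0253), with an adjusted *p* of 0.0983 without INT-767 mouse 2 and 0.0376 with the 4 mice set aside. *Col18a1* (ENSMUSG00000001435, chr10:77052178-77166548, - strand) was by far the most abundant collagen gene in these livers. It ranged from 379 to 936 CPM with a median of 796 CPM in the vehicle mice, and was 912, 567, 846 and 452 CPM in the INT-767 mice. The groups overlapped over most of their range. The lowest *Col18a1* values belonged to vehicle mice 1 and 7 and to INT-767 mice 2 and 4. Its log2 fold change was -0.03 ± 0.27 (adjusted *p* = 0.938) and turned to 0.36 with an offset for GC content and length and to 0.10 with the 4 mice set aside.

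Chains of the remaining types were mostly rare. *Col7a1* (ENSMUSG00000025650, chr9:108953586-108984875, + strand), which anchors epithelium to the tissue beneath, ranged from 0.254 to 2.54 CPM with a median of 1.497 CPM in the vehicle mice, from 108 reads. It was 0.445, 0.415, 0.282 and 0.150 CPM in the INT-767 mice, from 14 reads, with vehicle mouse 1 among them. *Col7a1* thus had a log2 fold change of -1.99 ± 0.58 (adjusted *p* = 0.0494), with the filter passed through the vehicle mice alone. It passed the filter in 7 of the 11 fits that left out a mouse, and its adjusted *p* in limma-voom was 0.101. With the offset for GC content and length it was -1.39 (adjusted *p* = 0.0540). *Col27a1*, a fibril-forming chain of cartilage and the most abundant chain outside the named classes, had 42.2 ± 16.6 CPM (SD) in the vehicle mice and 39.2 ± 6.50 CPM in the INT-767 mice, with a log2 fold change of -0.11 ± 0.27 (adjusted *p* = 0.794). *Col28a1* had a log2 fold change of -0.07 ± 0.59 (adjusted *p* = 0.935). *Col20a1* had 0.816 ± 0.233 and 1.67 ± 1.23 CPM, a log2 fold change of 1.06 ± 0.42 (adjusted *p* = 0.108). INT-767 mouse 1 held 54 of its reads at 3.43 CPM, and without that mouse the value was 0.36 (adjusted *p* = 0.504). Of the transmembrane chains, *Col13a1*, found at cell contacts, had 2.71 ± 0.458 and 3.98 ± 0.822 CPM with a log2 fold change of 0.53 ± 0.21 (adjusted *p* = 0.105), and *Col23a1* had -0.92 ± 0.54 (adjusted *p* = 0.235). The offset for GC content and length brought both *Col13a1* and *Col20a1* to calls in the higher direction. These were 2 of 32 chains, against 1066 of 13835 genes called higher in that fit.

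The makeup of the collagen RNA was described by the sums of each class. Of all collagen CPM, the fibrillar chains held 32.3% (mean of the vehicle mice) and 19.2% (mean of the INT-767 mice), and the multiplexins 36.4% and 56.0%. The groups overlapped in both shares, with 22.9 to 40.6% in the vehicle mice against 14.4 to 31.3% in the INT-767 mice for the fibrillar chains, and 26.7 to 48.7% against 39.1 to 65.6% for the multiplexins. Summed over all 44 chains, collagen RNA ranged from 1249 to 3167 CPM with a median of 2153 CPM in the vehicle mice. In the INT-767 mice it was 1505, 872, 1490 and 1180 CPM, within or below the vehicle range. The fibrillar chains summed to 360 to 1285 CPM in the vehicle mice, with a median of 673 CPM. They summed to 224, 125, 242 and 370 CPM in the INT-767 mice, where mouse 4 lay just above the lowest vehicle mouse. The network chains summed to 233 ± 67.4 CPM (SD) in the vehicle mice and 101 ± 40.6 CPM in the INT-767 mice, type VI to 207 ± 118 and 70.2 ± 28.2 CPM, and the FACIT chains to 163 ± 37.1 and 98.3 ± 33.3 CPM. The multiplexins, which *Col18a1* dominates, summed to 737 ± 209 and 705 ± 223 CPM. Without *Col18a1* the collagen sum was 1383 ± 612 CPM in the vehicle mice and 567 ± 183 CPM in the INT-767 mice, and every INT-767 mouse, up to 728 CPM, lay below every vehicle mouse, from 817 CPM. These sums are descriptions, and long transcripts weigh more in them.

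**Figure D3:**
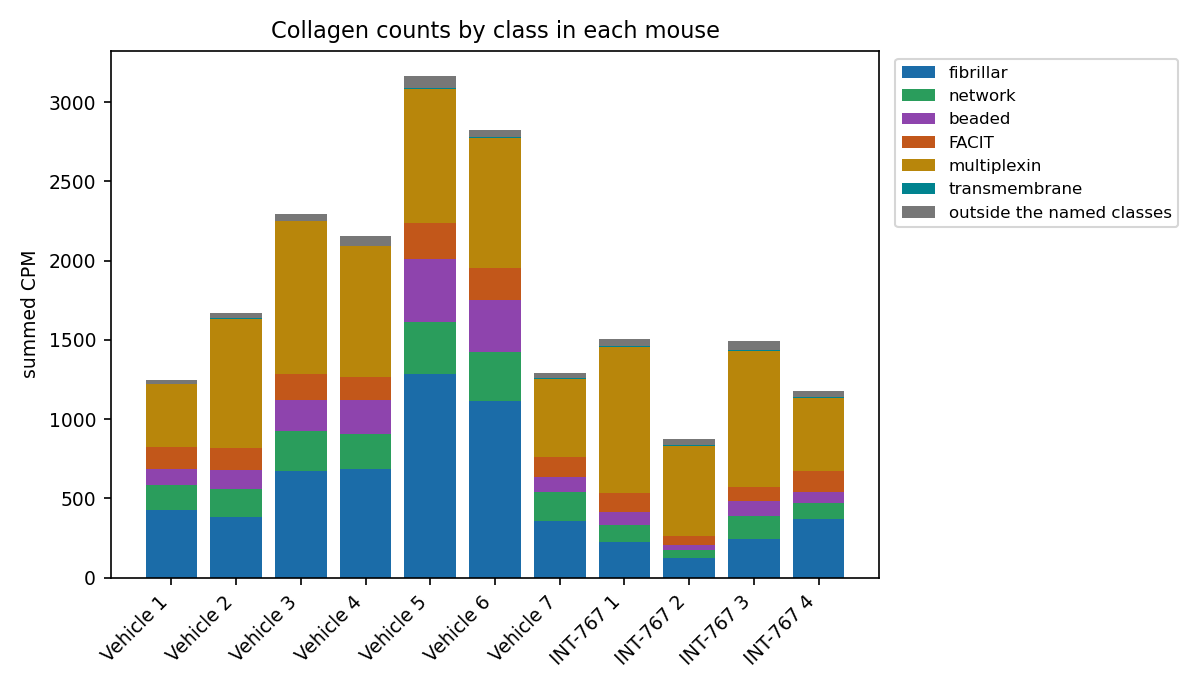
Summed CPM of the 44 collagen chains in each mouse, stacked by class. The multiplexin segment, mostly *Col18a1*, is 394 to 966 CPM in the vehicle mice and 461 to 925 CPM in the INT-767 mice, while the fibrillar segment averages 703 CPM in the vehicle mice and 240 CPM in the INT-767 mice.

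Levels of different chains were compared per kilobase of transcript (RPKM), with the length of the transcript that has the longest coding sequence. On this scale the order in the vehicle mice was *Col18a1* at 127 ± 36.2 RPKM (SD), *Col3a1* at 52.0 ± 22.6, *Col1a2* at 29.5 ± 19.4, *Col1a1* at 26.6 ± 20.5, *Col14a1* at 20.8 ± 4.23 and *Col4a1* at 18.9 ± 4.74 RPKM. The same 6 chains were not the 6 highest in the INT-767 mice, where *Col5a3* (8.36 ± 2.15 RPKM) stood above *Col4a1*. There *Col18a1* stood at 124 ± 39.3, *Col3a1* at 19.7 ± 11.96, *Col14a1* at 12.1 ± 4.53, *Col4a1* at 7.73 ± 3.37, *Col1a2* at 5.77 ± 2.56 and *Col1a1* at 3.40 ± 1.87 RPKM. On average the type I chains stood above *Col14a1* and *Col4a1* in the vehicle mice, but this order did not separate the groups: both type I chains stood below both of these in all 4 INT-767 mice and also in vehicle mice 1, 2 and 7.

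Ratios between chains of the same library do not depend on how libraries are scaled, and 6 were compared by an exact two-sided permutation test over the 330 ways to assign the mice, adjusted over the 6. *Col15a1* to *Col18a1* per base ranged from 0.0242 to 0.0624 in the vehicle mice. It was 0.0155, 0.0103, 0.0167 and 0.0208 for INT-767 mice 1 to 4, and the groups did not overlap. The difference was -1.38 on the log2 scale (exact permutation *p* = 0.00303, the smallest that the design allows, adjusted *p* = 0.0182). *Col1a1* to *Col1a2* per base averaged 0.809 in the vehicle mice (geometric mean, 0.609 to 0.978) and 0.524 in the INT-767 mice (0.328 to 0.655), with overlap. The difference was -0.63 on the log2 scale (exact permutation *p* = 0.0182, adjusted *p* = 0.0364). *Col6a1* to *Col6a2* averaged 1.43 and 1.75, a difference of 0.29 on the log2 scale (exact permutation *p* = 0.0152, adjusted *p* = 0.0364). With each mouse left out in turn, the last 2 of these ratios were each called in 4 of 11 repeats, and the *Col15a1* to *Col18a1* ratio in 8 of 11. The latter had an adjusted *p* of 0.05 at most, without INT-767 mouse 2, 3 or 4, where the exact permutation *p* of 0.00833 was the smallest that 3 INT-767 mice allow. Type I trimers hold more *Col1a1* chains than *Col1a2* chains. With transcript lengths of 5930 and 5348 bases, the ratio of their RNA per base was below 1 in all 11 mice. This level depends on the lengths chosen, since all annotated exons of the 2 genes span 6563 and 12426 bases.

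The remaining 3 ratios did not pass the adjusted threshold. *Col3a1* to *Col1a1* per base was 1.43 to 5.41 in the vehicle mice and 3.103 to 11.5 in the INT-767 mice (exact permutation *p* = 0.0545, adjusted *p* = 0.0655). *Col4a1* to *Col1a1* was 0.442 to 2.35 and 1.69 to 5.09 (exact permutation *p* = 0.0424, adjusted *p* = 0.0636). *Col4a1* to *Col4a2* was 1.42 to 3.36 and 1.48 to 3.88 (exact permutation *p* = 0.339, adjusted *p* = 0.339). On ranks, the *Col15a1* to *Col18a1* ratio alone passed (exact permutation adjusted *p* = 0.0364).

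**Figure D4:**
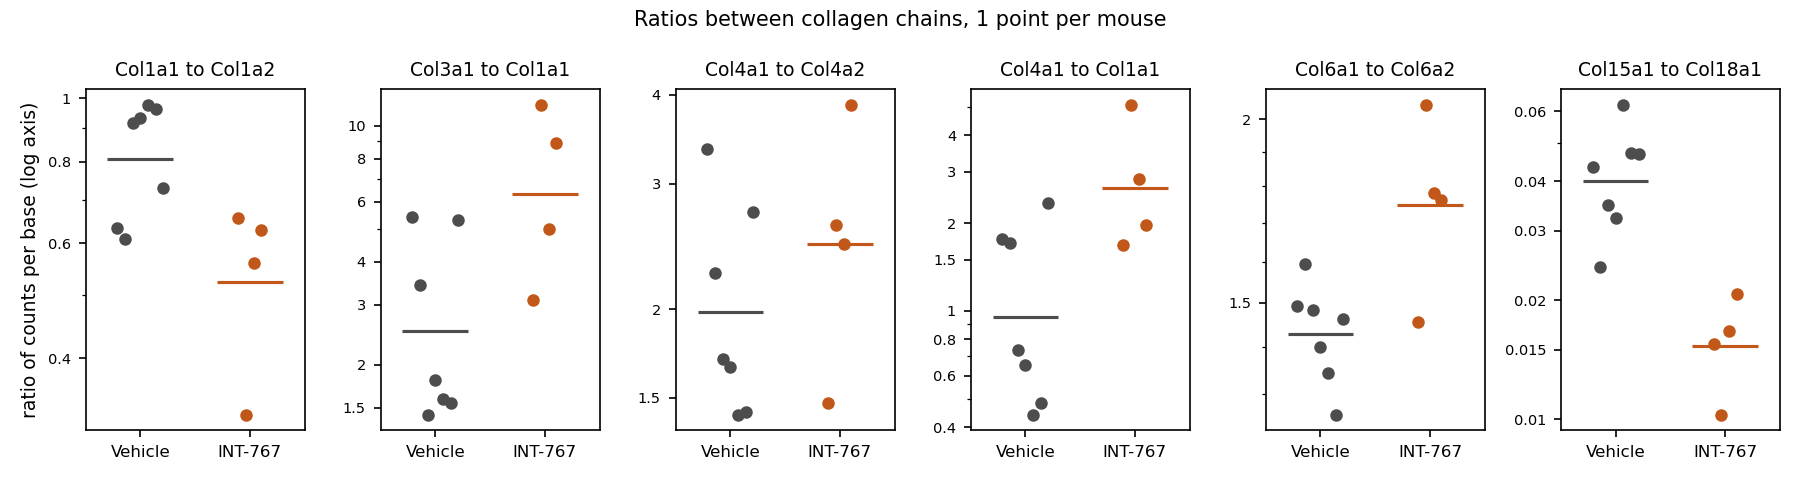
Ratios of counts per transcript base between 6 pairs of collagen chains (log axis), 1 point per mouse and the geometric mean of each group as a line. The *Col15a1* to *Col18a1* points of the 4 INT-767 mice lie at 0.0103 to 0.0208, below all vehicle points, and the other 5 panels overlap.

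The vehicle mice were themselves unequal. In vehicle mice 1 to 7, *Col1a1* was at 44.1, 54.1, 175.8, 161, 335, 295 and 37.6 CPM, so that 3 mice lay below and 4 above a gap of 1.57 on the log2 scale. *Col3a1*, in the same order of mice, was at 224, 174, 236, 273, 499, 429 and 187 CPM. *Col4a1* was at 86.9, 103, 144, 117, 165, 160 and 98.5 CPM. Vehicle mice 5 and 6 had the highest values of the group for each of these chains, and also for *Col6a3* (216 and 185 CPM) and *Col15a1* (46.1 and 34.2 CPM). *Col18a1* followed another order, at 379, 796, 936, 801, 799, 787 and 472 CPM, with vehicle mouse 3 highest. Because *Col1a1* left a gap between mice, no correlation is given across them.

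**Figure D5:**
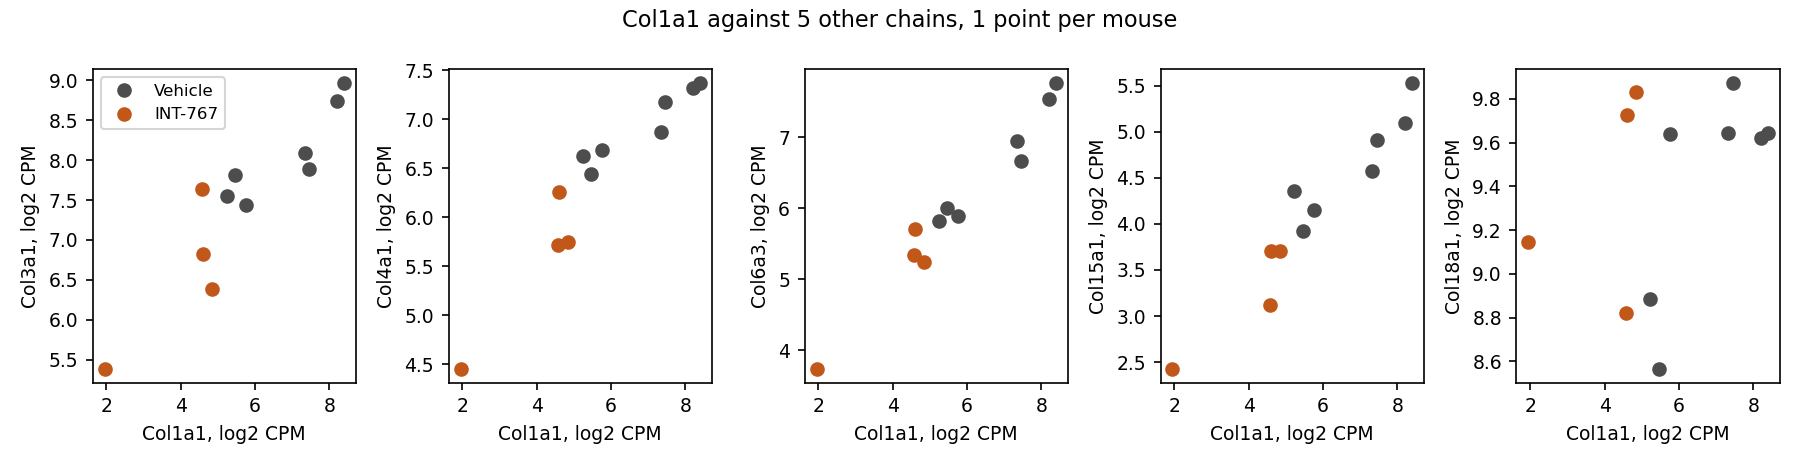
Log2 CPM of *Col1a1* (horizontal) against *Col3a1*, *Col4a1*, *Col6a3*, *Col15a1* and *Col18a1* (vertical), 1 point per mouse, 7 vehicle and 4 INT-767. In the first 4 panels vehicle mice 5 and 6 lie at the upper right and INT-767 mouse 2 at the lower left, and in the *Col18a1* panel the groups overlap on the vertical axis.

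Genes that process collagen were read from lists of the pathway, against the background of 4.68% of all genes called lower and 5.04% higher. Of 10 tested genes for procollagen cleavage and crosslinking, 5 were called lower and 0 higher, with a median log2 fold change of -1.04. They were *Adamts14* (-2.05 ± 0.39, adjusted *p* = 0.0103) and *Adamts2* (-1.26 ± 0.34, adjusted *p* = 0.0371), which cut off the amino end of procollagen, the crosslinking oxidases *Loxl2* (-1.63 ± 0.35, adjusted *p* = 0.0168) and *Loxl1* (-1.20 ± 0.30, adjusted *p* = 0.0291), and *Pcolce* (-1.02 ± 0.26, adjusted *p* = 0.0299), which enhances cleavage of the carboxyl end. Without INT-767 mouse 2, *Adamts14* remained called and the other four did not. Of 18 tested genes for folding and secretion, 1 was called lower and 0 higher. An unadjusted *p* below 0.05 in edgeR was found for 2 lower and 3 higher, against 15.6% and 17.4% of all genes. DESeq2 called 2 lower and 2 higher, against 8.31% of all genes lower and 1381 of 16084 higher. The gene called by edgeR was *Crtap*, a partner in proline hydroxylation, at -0.94 ± 0.21 (adjusted *p* = 0.0196), which was not called without INT-767 mouse 2 (adjusted *p* = 0.0858). The list's median log2 fold change was -0.09, and its most abundant gene, *P4hb*, a subunit of prolyl hydroxylase, had a log2 fold change of 0.27 ± 0.18 (adjusted *p* = 0.291). The difference between these lists was not tested.

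Receptors, proteases and basement membrane partners of collagen were read in the same way. Of 9 tested collagen receptors, *Itga11*, the integrin chain of fibroblasts that binds type I collagen, was called at -2.84 ± 0.71 (adjusted *p* = 0.0288), and *Itgb1*, the most abundant, had a log2 fold change of 0.47 ± 0.28 (adjusted *p* = 0.256). *Itga11* had 118 reads in all mice, at 1.36 ± 0.905 CPM (SD) in the vehicle mice and 0.169 ± 0.155 CPM in the INT-767 mice. It passed the filter through the vehicle mice alone. Its INT-767 mean lay below the lowest floor of 3 counts (0.175 CPM), so the size of its change is uncertain. Of 6 tested genes for collagen breakdown, the gelatinase *Mmp2* (-1.14 ± 0.30, adjusted *p* = 0.0331) and the cathepsin *Ctsk* (-0.77 ± 0.19, adjusted *p* = 0.0274) were called lower and 0 higher. Of 16 partners of type IV collagen in the basement membrane, all tested, 5 were called lower and 0 higher, with a median log2 fold change of -0.99. The laminin chains *Lama5* (-1.78 ± 0.43, adjusted *p* = 0.0261) and *Lamb1* (-0.77 ± 0.21, adjusted *p* = 0.0376) and the linker *Nid1* (-0.98 ± 0.26, adjusted *p* = 0.0357) were among them, as was *Pxdn* (-0.80 ± 0.23, adjusted *p* = 0.0484), which crosslinks type IV collagen. In the higher direction, DESeq2 too called 0 genes of the cleavage, receptor, breakdown and basement membrane lists, where it called 1381 of 16084 genes. Of these lists, edgeR gave 0 genes an unadjusted *p* below 0.05 in that direction, where 17.4% of all genes had one. The lists are short, so 0 in the higher direction says little about them. With vehicle mice 1 and 7 set aside, edgeR called 1 receptor higher, where 2701 of 13644 genes were called higher. Without INT-767 mouse 2, edgeR called 0 genes of the receptor, breakdown and basement membrane lists, where 0.767% of all genes were called lower.

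Markers of the cells that could supply collagen RNA are given for the whole list in each case. Of all genes, edgeR called 4.68% lower and 5.04% higher. Of 8 tested myofibroblast markers, 2 were called lower (*Pdgfrb* and *Loxl2*) and 0 higher. Their summed level was 155 to 264 CPM with a median of 189 CPM in the vehicle mice and 121, 132, 153 and 352 CPM in the INT-767 mice, with INT-767 mouse 4 above all others. The most abundant, *Lum*, a matrix proteoglycan, was at 90.8 ± 43.4 CPM (SD) in the vehicle mice and 128 ± 97.5 CPM in the INT-767 mice. Of 6 tested portal fibroblast markers, *Fbln2* and *Eln*, genes of the elastic fibre, were called lower and 0 higher, and *Dpt*, the most abundant, averaged 25.4 and 21.1 CPM. The portal fibroblast sums were 45.7 to 84.3 CPM in the vehicle mice and 44.3, 43.0, 68.3 and 54.5 CPM in the INT-767 mice. Of 9 quiescent stellate cell markers, edgeR and DESeq2 called 0, and 1 had an unadjusted *p* below 0.05. Their sum was 243 to 487 CPM in the vehicle mice and 396, 273, 307 and 323 CPM in the INT-767 mice, and *Reln*, the most abundant, averaged 112 and 69.1 CPM.

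Other cell types were read in the same way, against the same 4.68% of all genes called lower and 5.04% higher. Of 8 macrophage markers, *Cd68*, *Csf1r* and *Cd9* were called lower. DESeq2 called 7 lower (8.31% of all genes), and 7 had an unadjusted *p* below 0.05 in that direction (15.6% of all genes). With vehicle mice 1 and 7 and INT-767 mice 2 and 4 set aside, edgeR called 5 lower (6.12% of all genes). The macrophage sums were 349 to 544 CPM in the vehicle mice and 262, 219, 196 and 337 CPM in the INT-767 mice, which did not overlap. The most abundant macrophage marker, *Gpnmb*, averaged 117 and 46.4 CPM. Of 8 cholangiocyte markers, edgeR called *Cldn4* lower and DESeq2 called 3 (6 with an unadjusted *p* below 0.05). The cholangiocyte sums were 77.9 to 116 CPM and 56.2, 41.9, 84.3 and 63.0 CPM, and *Sox9*, the most abundant, averaged 24.8 and 16.3 CPM. Of 7 vascular endothelial markers, edgeR called *Vwf* lower and DESeq2 called 2 (3 with an unadjusted *p* below 0.05). The vascular sums were 111 to 235 CPM and 156, 85.1, 124 and 86.3 CPM, and *Plvap*, the most abundant, averaged 51.3 and 28.9 CPM. Of 7 sinusoidal endothelial markers edgeR called 0 and DESeq2 1 (2 with an unadjusted *p* below 0.05), with sums of 141 to 323 CPM and 190, 160, 175 and 135 CPM, and *Stab1*, the most abundant, averaged 65.4 and 24.9 CPM.

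Of 5 tested mesothelial markers, *Lrrn4* was called higher by edgeR at 1.97 ± 0.28 (log2, adjusted *p* = 0.00329). DESeq2 called 2 mesothelial markers higher, and 2 had an unadjusted *p* below 0.05 in edgeR in that direction. The mesothelial sums were 10.9 to 22.7 CPM in the vehicle mice and 20.9, 24.9, 21.1 and 17.7 CPM in the INT-767 mice, and *Gpm6a*, the most abundant, averaged 6.98 and 6.82 CPM. Of 7 lymphocyte markers edgeR and DESeq2 called 0 (1 with an unadjusted *p* below 0.05), with sums of 3.96 to 14.4 CPM and 3.81, 5.67, 4.93 and 8.17 CPM. Hepatocyte markers were abundant in every library. Of 9, edgeR called 0 and DESeq2 called 5 higher, where DESeq2 called 1381 of 16084 genes higher. Of these markers 6 had an unadjusted *p* below 0.05, all higher, as had 17.4% of all genes in that direction. With vehicle mice 1 and 7 and INT-767 mice 2 and 4 set aside, edgeR called 2 higher, and 856 of 14363 genes. The hepatocyte sums were 64452 to 84801 CPM in the vehicle mice and 110533, 120904, 98593 and 83744 CPM in the INT-767 mice. *Alb* averaged 43057 ± 4297 and 63913 ± 19494 CPM (SD). Without INT-767 mouse 2, *Cd68*, *Csf1r* and *Lrrn4* were still called, and the other called markers named here (*Pdgfrb*, *Loxl2*, *Fbln2*, *Eln*, *Cd9*, *Cldn4* and *Vwf*) were not. No marker had 0 reads in all mice. The part of these cell types in the collagen values was not tested.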

How the data were processed

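Poly(A) mRNA of terminal liver samples was sequenced as stranded libraries on a NextSeq 500 for 75 cycles. The authors aligned reads with STAR (2.5.2a in their methods, 2.4.0 in the submitters' processing notes) to GRCm38 with Ensembl 84, and deposited counts of reads per gene, whole numbers without normalization, for 7 vehicle and 4 INT-767 mice, grouped here by their labels. Which program counted the reads, whether it used strand and whether libraries were made in batches is not given in the sources used here.

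Counts were analysed with edgeR 4.0.16 in R 4.3.3 (filterByExpr at its default minimum of 10 counts and total of 15, TMM factors, robust quasi-likelihood fit, Benjamini-Hochberg adjustment over 13880 genes, threshold 0.05). SEs come from the log2 fold change and its F statistic. DESeq2 1.42.0, limma-voom 3.58.1, RLE factors, library size only, no filter, a block on replicate number, an offset for GC content and transcript length (lowess, span 0.3) and leaving out each mouse were alternatives. Leaving out vehicle mice 1 and 7, INT-767 mice 2 and 4, or both pairs, and using these 4 alone, was chosen after seeing the data. Ratios were tested by exact permutation in Python 3.11.15 with scipy 1.17.1. On simulated counts for the 13835 genes with a known GC content, edgeR recovered 88.5% of 200 genes changed by 2 on the log2 scale and called 10 others.

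Total counts per mouse were 7381211 to 16022459, and a floor was set at 3 counts. Floors cover counting error alone, because PCR copies carried no molecular identifier. Exons, sequences and lengths are from GRCm38 with the GENCODE M21 annotation. Every collagen chain was named, with the called genes of each processing list (at most the 4 with the largest change, and the most abundant where fewer than 2 were called) and the most abundant gene of each marker list. *Pcolce*, *Lamb1* and the called marker genes were named after their values were seen. Some of the genes and sequences chosen by these rules are not reported here. The members and lists were chosen with earlier results of these data known. Correlations among vehicle mice had been planned and are not given, because *Col1a1* left a wide gap between those mice.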

Additional observations from a re-analysis of the deposited data

Results flagged for a closer look

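4 of 92 groups of values tested held a mouse farther from its group than Dixon's 95% limit allows, where chance gives about 1 in 20. *Col8a2* was highest in INT-767 mouse 4, at 3.75 CPM. *Col11a2* was lowest in INT-767 mouse 2, at 0.553 CPM. *Col23a1* was highest in INT-767 mouse 1, at 1.08 CPM. The summed level of the transmembrane chains was lowest in INT-767 mouse 4, at 3.22 CPM. All concern chains of a few CPM or less.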

How the results depend on the processing

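Of the collagen chains, 8 were called lower, and this count was 8 with RLE factors and with the GC and length offset (7 of the same 8), 11 with library size only, which moved the median of all genes to -0.22 on the log2 scale, and 6 with limma-voom (5 of the same 8, without *Col6a5*, *Col6a6* and *Col7a1*). It was 3 without the filter on low counts, when 40 chains were tested, and 14 with DESeq2, when 34 were. The share of all genes called lower moved too, from 4.68% to 7.39% with library size only, 4.11% with limma-voom, 1.70% without the filter, 8.31% with DESeq2 and 5.94% with the offset. The count of chains was 15 with vehicle mice 1 and 7 set aside, 0 with INT-767 mice 2 and 4 set aside, 10 with these 4 mice set aside and 1 among these 4 mice alone. Leaving out each mouse in turn gave 0 to 14, with 0 without INT-767 mouse 2. Counts of chains called higher were 0 except 2 with the GC and length offset, 1 with vehicle mice 1 and 7 set aside and 1 with the 4 mice set aside. Of all genes, 1066 of 13835, 2701 of 13644 and 856 of 14363 were called higher in these fits. Chains in which all INT-767 mice lay above all vehicle mice numbered 0 to 1 without a mouse in turn, 1 without INT-767 mouse 4. With all 11 mice they numbered 0, against 3.87% of all genes. Causes were not tested.

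With the replicate block, 0 chains were called (11 with an unadjusted p below 0.05, where 9.70% of all genes had one), and 0 with the block and the GC and length offset (15 unadjusted, where 12.2% of all genes had one). In these fits 0 of all 13880 and 0 of all 13835 genes tested were called in either direction. Mice of the same number deviated from their group means with r of -0.69, 0.22, 0.15 and -0.48. The labels do not say that the numbers pair the mice, and these few values cannot decide it. The block leaves few degrees of freedom.

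Signs turned only for chains that were not called. With the replicate block *Col27a1* had a log2 fold change of 0.13. With the GC and length offset *Col4a3* had 0.13, *Col4a5* 0.035, *Col12a1* 0.38, *Col18a1* 0.36, *Col27a1* 0.47 and *Col28a1* 0.18, and with the offset and the block *Col4a3* 0.26, *Col4a4* 0.19, *Col12a1* 0.28, *Col18a1* 0.25 and *Col27a1* 0.55. With INT-767 mice 2 and 4 set aside *Col8a2* had -0.29, *Col18a1* 0.32, *Col27a1* 0.032 and *Col28a1* 0.027. With the 4 mice set aside *Col4a4* had 0.18, *Col8a2* -0.13 and *Col18a1* 0.10, and among these 4 alone *Col12a1* had 0.44, *Col18a1* 0.22, *Col27a1* 0.42 and *Col28a1* 0.22. Without each mouse in turn *Col28a1* ranged from -0.50 to 0.26, *Col18a1* from -0.19 to 0.12, *Col27a1* from -0.21 to 0.064 and *Col8a2* from -0.28 to 0.50.

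On ranks, the ratios *Col1a1* to *Col1a2* (difference of -0.63) and *Col6a1* to *Col6a2* (0.29) did not pass, with exact permutation adjusted p = 0.109 for each. Without each mouse in turn the differences, on the log2 scale, were -0.73 to -0.40 and 0.21 to 0.38, both called in 4 of 11, 1.04 to 1.67 for *Col3a1* to *Col1a1* (called in 2), 0.10 to 0.57 for *Col4a1* to *Col4a2* (called in 0), 1.14 to 1.68 for *Col4a1* to *Col1a1* (called in 3) and -1.52 to -1.19 for *Col15a1* to *Col18a1* (called in 8).

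With the GC and length offset, the fibrillar median log2 fold change moved from -1.40 to -0.92, the network median log2 fold change from -0.54 to -0.22, the beaded median log2 fold change from -1.68 to -1.16, the FACIT median log2 fold change from -0.68 to -0.39 and the multiplexin median log2 fold change from -0.72 to -0.34. The transmembrane median log2 fold change turned from -0.19 to 0.0849, and that of chains outside the named classes turned from -0.09 to 0.32. With the offset and the replicate block, the network median was -0.0808, the fibrillar one -0.96 and the beaded one -0.9001. Among the 4 mice alone the fibrillar median was -0.81, the network one -1.09, the beaded one -0.85, the transmembrane one 0.52 and that outside the named classes 0.42. The network median was -1.001 without INT-767 mouse 3 and the transmembrane one -0.66 without INT-767 mouse 1.

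Of the lists of genes that process or bind collagen, the basement membrane partners called lower numbered 5, against 10 with DESeq2, 3 with the GC and length offset and without the filter, 12 with vehicle mice 1 and 7 set aside, and 0 to 11 without a mouse in turn (0 without INT-767 mouse 2 or vehicle mouse 5 or 6). The cleavage and crosslinking genes called lower numbered 5, 6 with DESeq2, and 1 to 6 without a mouse in turn. Breakdown genes numbered 2 (0 to 3), receptors 1 (0 to 3) and folding genes 1 (0 to 2). Of all genes, 4.68% were called lower, 8.31% with DESeq2, 5.94% with the offset and 1.70% without the filter. With vehicle mice 1 and 7 set aside this share was 15.8%. With a mouse left out in turn it was 0.767% (INT-767 mouse 2) to 9.86% (vehicle mouse 1), and 2.11% and 1.96% without vehicle mouse 5 and 6. With the replicate block all these counts were 0, as was the count of all 13880 genes called.

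Chains with fewer than about 1 CPM rest on few reads per mouse, and with 4 INT-767 mice a single library decides most calls. Other scalings of the correlations among vehicle mice were not run, since no correlation is given.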
